A study of Mus musculus with 3 samples.

Results

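The genes described here are mouse genes whose symbol is the stem Zfp, for zinc finger protein, followed by a number. A gene was kept if it had a probe set with a signal above 31.7, the median over all values, on every array, and was represented by 1 probe set, chosen by the highest mean signal. This left 190 of the 305 such genes with a probe set, out of 9060 named genes that passed the same floor and 18194 named genes in all. The genes were thus selected on signal level, which is a description, and a gene that dropped below the floor on any array is not among the 190.

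RNA of CD8 T cells from the tissue labelled MLN was measured on 1 array for each of 3 groups. CL4-TCR cells carry a T cell receptor directed at hemagglutinin (HA), a protein of influenza virus, and since their name holds no HA their array is called the receptor-only array. VILLIN-HA/CL4-TCR joins that receptor with HA driven by the villin promoter, which is active in gut epithelium. Villin-HA + CL4-TCR names the same parts but joins them by a plus sign, and the names alone do not say how the HA groups differ. All 3 groups share the receptor, and strain, age, sex, sorting and the number of animals are not stated in the labels. The submitters list ordinary, activated and regulatory CD8 T cells, and no label assigns activated or regulatory to either HA group. With 1 array per group no difference has a replicate check, no p-value can be given, and each difference is one between arrays.

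Most Zfp proteins carry a row of zinc fingers of the Cys-Cys-His-His kind, each a short loop folded around a zinc ion that reads a few bases of DNA. Many add a KRAB domain, which recruits the co-repressor Trim28 and through it the histone methyltransferase Setdb1 and heterochromatin proteins to silence transposable elements, and such genes often lie side by side in the genome as products of gene duplication. A few genes that share the name do other work: Zfp36 encodes an RNA-binding protein that shortens the life of cytokine mRNAs, Zfp207 a protein of the mitotic spindle and Zfp91 a ubiquitin ligase.

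Promoter windows of 300 bases, from 250 before to 50 after the start, were found for 161 of the 190 genes in RefSeq (GRCm38.p6), 201 windows in all. Both windows of Zfp367 and the windows of Zfp329 and Zfp141 are shown because they belong to the gene with the largest excess in Villin-HA + CL4-TCR cells and to the 2 genes with the largest deficit there among those that hold an NRF1 motif. Capitals mark matches, on either strand, to the motifs E2F (TTTCGCGC or TTTGGCGC), ETS (CCGGAAGT), NRF1 (the palindrome that GCGCA forms with its reverse complement), CRE (TGACGTCA), the CCAAT box (CCAAT), YY1 (AAGATGGCG) and the promoter box of the letters TATAAA, and each window runs 5′ to 3′ on the strand of its gene.
Zfp367, first window, chr13:64153150-64153449, minus strand: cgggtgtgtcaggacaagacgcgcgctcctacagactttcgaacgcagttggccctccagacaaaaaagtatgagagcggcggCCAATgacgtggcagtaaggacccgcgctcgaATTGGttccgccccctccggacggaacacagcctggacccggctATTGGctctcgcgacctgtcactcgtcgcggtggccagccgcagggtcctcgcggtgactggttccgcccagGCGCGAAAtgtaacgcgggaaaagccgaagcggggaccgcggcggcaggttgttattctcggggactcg
Zfp367, other window, chr13:64152324-64152623, minus strand: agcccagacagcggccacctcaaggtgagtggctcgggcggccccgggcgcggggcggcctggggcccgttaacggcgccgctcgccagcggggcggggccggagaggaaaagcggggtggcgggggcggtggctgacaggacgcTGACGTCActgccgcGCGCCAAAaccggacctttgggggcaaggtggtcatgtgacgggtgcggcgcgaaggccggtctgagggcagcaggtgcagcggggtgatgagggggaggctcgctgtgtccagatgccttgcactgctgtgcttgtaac
Zfp329, chr7:12818811-12819110, minus strand: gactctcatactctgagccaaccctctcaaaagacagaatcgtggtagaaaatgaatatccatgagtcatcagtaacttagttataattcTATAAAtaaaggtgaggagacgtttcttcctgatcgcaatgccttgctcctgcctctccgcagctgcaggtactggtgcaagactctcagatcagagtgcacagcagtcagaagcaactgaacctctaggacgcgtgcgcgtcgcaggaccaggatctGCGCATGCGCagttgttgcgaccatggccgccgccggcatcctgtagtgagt
Zfp141, chr7:42505704-42506003, minus strand: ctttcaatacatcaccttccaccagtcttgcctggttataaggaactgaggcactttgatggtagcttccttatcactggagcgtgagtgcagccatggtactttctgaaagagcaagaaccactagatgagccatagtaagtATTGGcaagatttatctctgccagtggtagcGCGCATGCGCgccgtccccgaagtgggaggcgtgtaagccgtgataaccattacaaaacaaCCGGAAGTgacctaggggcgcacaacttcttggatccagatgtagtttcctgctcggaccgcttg

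The E2F letters, which resemble the site of the factors that switch on genes for DNA replication, stood in both Zfp367 windows. They were found in 3.48% of the 201 Zfp windows, 1.65% of the 9472 windows of all named genes above the floor and 0.813% of all 32851 windows in the table. The NRF1 letters stood in 4.48% of the Zfp windows, 2.41% of those of all genes above the floor and 0.971% of all windows. Among Zfp genes at least 2-fold lower in Villin-HA + CL4-TCR cells than on the receptor-only array they stood in 5 of 41 windows (12.2%), those of Zfp329, Zfp141, Zfp82, Zfp658 and Zfp213. They also stood in a window of Zfp334, Zfp639, Zfp653 and Zfp800, which were not 2-fold lower there (log2 differences of 0.10, -0.48, -0.70 and -0.29). ETS letters were in 12.4% against 9.25% of windows above the floor and 3.89% of all windows, CRE letters in 4.98% against 3.33% and 1.79%, CCAAT in 45.8% against 37.4% in both of those sets, YY1 letters in 3.48% against 3.56% and 1.40%, and TATAAA in 7.46% against 6.77% and 13.6%. The median GC content of the Zfp windows was 56.7% with 16 CpG dinucleotides, against 61% and 21 over genes above the floor and 52.7% and 7 over all windows. In the 41 windows of genes at least 2-fold lower in Villin-HA + CL4-TCR cells, ETS letters were in 12.2%, CCAAT in 48.8% and TATAAA in 7.32%. E2F, CRE and YY1 letters were in 2.44% each. NRF1 was singled out from these motifs after the values were seen, and whether it marks the lower genes was not tested. Matches to E2F and NRF1 can share the letters GCGC and so overlap. A match is a run of letters and not a shown binding site.

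The arrays were of CD8 T cells by their markers, but the Villin-HA + CL4-TCR array also carried transcripts of other tissue. All 6 genes of the CD8 T cell list with a probe set lay above the floor on each array, with summed signals of 20592.9 to 23016.1, and Cd4 had at most 9.4. The list also holds Cd3 genes and Ptprc, which are not confined to CD8 T cells. Ptprc alone gave 11082.2 to 11458.9, and Cd8a had 2714 to 3149.3. Of 8 skeletal muscle markers, 1 lay above the floor on the receptor-only array, 3 in VILLIN-HA/CL4-TCR cells and 8 in Villin-HA + CL4-TCR cells, with summed signals of 179.7, 179.4 and 5640.4. Of 12 myeloid markers 5, 8 and 9 did (286.2, 1643.8 and 1857.7), of 8 stromal markers 1, 0 and 6 (127.1, 123.2 and 884.5), of 6 epithelial markers 3, 2 and 5 (263, 212.7 and 290.2) of 5 B cell markers 3, 4 and 2 (237.8, 462.8 and 350.9) and of 3 CD4 T cell markers 1, 0 and 0 (74, 51.6 and 46.6). The 1 NK cell marker was below the floor on every array. None of these markers was at exactly 0, and the gut gene Vil1 had at most 4.8. The ratio of the 3′ to the 5′ control probe set of Gapdh, a measure of how intact or fully copied the RNA was, was 18.4, 46.2 and 3.35 in the same order, and that of Actb 1.98, 2.46 and 1.80. Xist, an RNA of female cells, had 5442.5, 2.5 and 1339, and the Y-linked gene Eif2s3y 13.4, 1496 and 746.9, so that the Villin-HA + CL4-TCR array carried transcripts of both sexes, and sex and group cannot be told apart.

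As a group, Zfp transcripts were lowest in Villin-HA + CL4-TCR cells. Their median signal was 194.9 on the receptor-only array, 176.1 in VILLIN-HA/CL4-TCR cells and 125.6 in Villin-HA + CL4-TCR cells, and the 3 ranges overlapped, from 33.2 to 4213.4, from 32.1 to 3766.7 and from 32.2 to 5235.1. Over all 9060 genes the medians were 283.6, 275.8 and 266. Of the 190 genes, 129 had their lowest signal in Villin-HA + CL4-TCR cells (67.9%), against 38.8% of all genes, and 98 had their highest on the receptor-only array (51.6% against 38.3%). In bulk RNA, fewer cells that express a gene and less RNA per cell cannot be told apart.

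For Zfp genes the floor acted most in Villin-HA + CL4-TCR cells. Over all named genes it acted least there, with 11422 above it, against 10271 (receptor-only) and 10342 (VILLIN-HA/CL4-TCR). Of the 115 Zfp genes left out, taken by their brightest probe set, 55 were above the floor on no array, 24 on 1 and 36 on 2. Of those 36, 23 were below it in Villin-HA + CL4-TCR cells alone, 7 in VILLIN-HA/CL4-TCR cells alone and 6 on the receptor-only array alone. With lower values raised to the floor, 12 of the 52 left-out genes measured on either array were at least 2-fold lower (23.1%) and 4 higher (7.69%) in Villin-HA + CL4-TCR cells than on the receptor-only array, against 4.34% and 17.4% of 3137 named genes left out and treated alike. Between the VILLIN-HA/CL4-TCR and receptor-only arrays 1 of 53 was higher (1.89% against 10.6%) and 2 lower (3.77% against 4.86%). Between the HA arrays 8 of 51 were higher in VILLIN-HA/CL4-TCR cells (15.7% against 3.57%) and 4 lower (7.84% against 13.0%). The kept genes nearest the floor were Zfp787, Zfp213 and Zfp58, with lowest signals of 32.1, 32.2 and 33.2. Those nearest below it were Zfp90, Zfp113 and Zfp94, with 31.6, 30.8 and a lower value still, each in Villin-HA + CL4-TCR cells.

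The first comparison asks how Zfp transcripts of CD8 T cells from VILLIN-HA/CL4-TCR mice differ from those of CL4-TCR mice. They differed little as a group. A difference counts at 2-fold or more, a log2 difference of 1. Of the 190 genes 7 were higher (3.68%, against 6.56% of all genes above the floor) and 8 lower (4.21%, against 6.98%). The median log2 difference was -0.12 against -0.05 over all genes, with quartiles of -0.43 and 0.18, and single genes ran from -2.31 to 2.21. The pooled SD between probe sets of 1 Zfp gene was 0.38 on this scale over the 53 genes with more than 1 probe set above the floor, which is the only error available and leaves out animals and sorts. None of the 15 counted genes had another probe set above the floor. The summed myeloid markers (286.2 receptor-only and 1643.8) and the Gapdh end ratio (18.4 and 46.2) differed between these arrays. Their part in the result was not tested.

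Among the higher genes Zfp52, a zinc finger gene of a tandem cluster, had signals of 73.6 (receptor-only), 341 (array of VILLIN-HA/CL4-TCR) and 148.8 (array of Villin-HA + CL4-TCR), the order used from here on. It stood 4.63-fold higher than the receptor-only value in VILLIN-HA/CL4-TCR cells and 2.02-fold higher in Villin-HA + CL4-TCR cells. Zfp367, whose transcript is known to peak as cells enter DNA replication, had 119.2, 351.3 and 420.3. It was high on both HA arrays, by 2.95-fold and 3.53-fold. Zfp330, which encodes a nucleolar protein, had 408.9, 850 and 892.8, differences of 2.08-fold and 2.18-fold. Zfp367 and Zfp330 had similar signals on both HA arrays, whereas Zfp52 did not. Zfp991 had 104.8, 265.4 and 157.6, Zfp931 100.5, 205 and 120.4, Zfp74 54.3, 125.9 and 36.6, and Zfp799 65.1, 131.1 and 55.2. In these 4 the VILLIN-HA/CL4-TCR array stood highest, by 2.53-fold, 2.04-fold, 2.32-fold and 2.01-fold over the receptor-only array.

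Among the lower genes Zfp652, a transcriptional repressor that works with co-repressors of the ETO family, had 594.4, 119.8 and 217.6. It was 4.96-fold lower in VILLIN-HA/CL4-TCR cells and 2.73-fold lower in Villin-HA + CL4-TCR cells. Zfp687, a partner of the chromatin reader Zmynd8, had 137.3, 45.9 and 113.6, so that only the VILLIN-HA/CL4-TCR array was low, by 2.99-fold. Zfp523, a relative of the factor that drives small nuclear RNA genes, had 85.1, 37.7 and 94.3 (2.26-fold lower). Zfp740 had 182.5, 72 and 257.6 (2.53-fold lower). In Zfp687, Zfp523 and Zfp740 the low value was thus that of the VILLIN-HA/CL4-TCR array, with the other 2 arrays within 1.41-fold of each other. Zfp623 had 234.4, 103.2 and 126.4 and Zfp653 129.6, 57.5 and 79.7, with 2.27-fold and 2.25-fold lower signals in VILLIN-HA/CL4-TCR cells. Zfp946 and Zfp712 were lower still on the other HA array and are described with it.

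**Figure D1:**
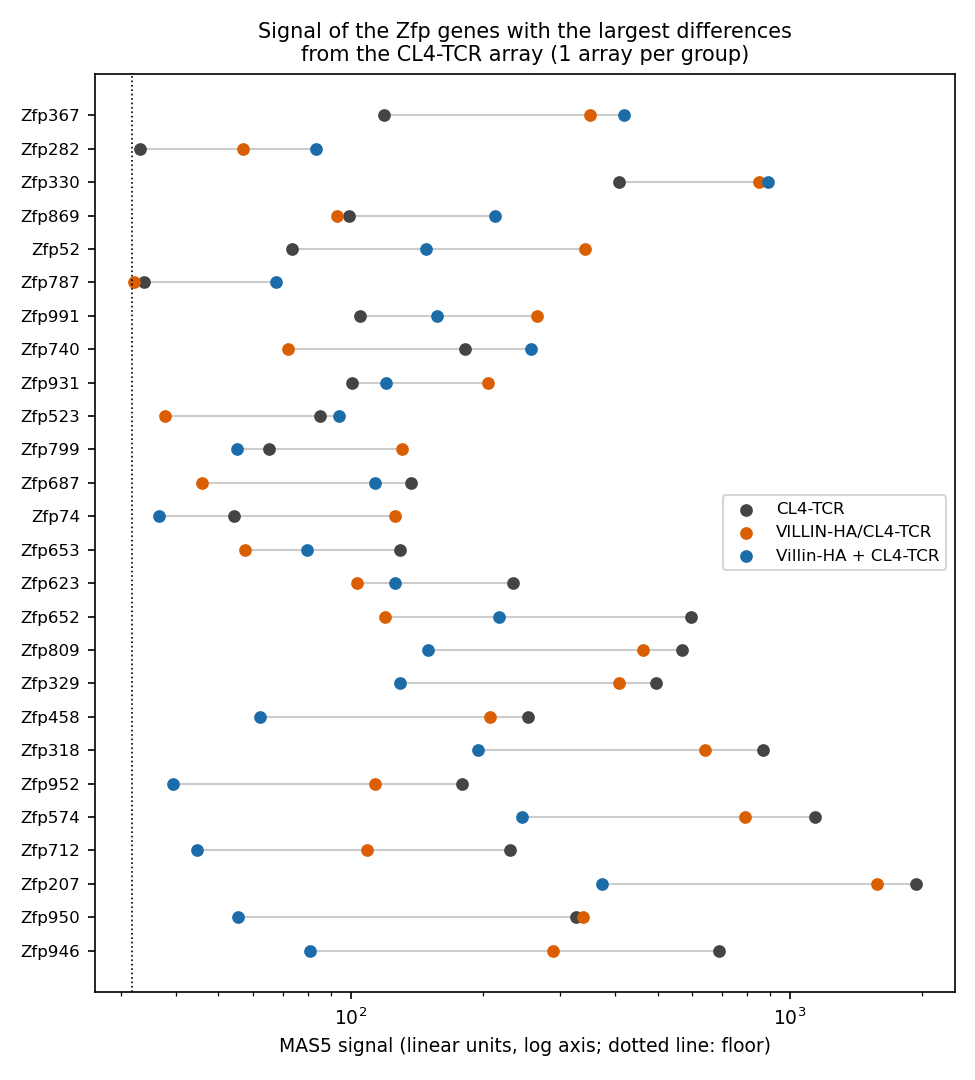
MAS5 signal on a log axis of the Zfp genes with the largest differences of either HA array from the receptor-only (CL4-TCR) array, 1 point per array, with the floor as a dotted line. In the lower rows, from Zfp809 down to Zfp946, the Villin-HA + CL4-TCR point lies apart at the left, while Zfp367 and Zfp330 have both HA points at the right.

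The second comparison sets Villin-HA + CL4-TCR cells against the receptor-only array. Here 45 of the 190 genes were at least 2-fold lower (23.7%, against 11.3% of all genes above the floor) and 6 were higher (3.16%, against 9.91%). The median log2 difference was -0.53 against -0.05 over all genes, with quartiles of -0.98 and -0.07, and 148 genes (77.9%) lay below 0 against 52.9% of all genes. Of the 3239 named genes whose mean signal lay between the Zfp quartiles of 91.6 and 307.5, 13.4% were lower and 11.1% higher, with a median of -0.09. This background was added after the data had been seen. With the floor at a signal of 68.6, 24 of the 132 Zfp genes left were lower (18.2%, against 11.2% of all genes). Muscle, stromal and myeloid markers and the Gapdh end ratio moved with this comparison, and their part in the result was not tested.

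The scaling of the arrays moved the level of all genes. After scaling to equal medians, which adds 1 constant to every log2 difference of a comparison, the median of all genes was -0.25. Relative to all genes the Zfp median was -0.48 as deposited and -0.45 after quantile normalisation. Under the median scaling 28.8% of the calls over all genes were higher instead of 46.7%, and 3.03% instead of 11.8% of the calls among Zfp genes. For VILLIN-HA/CL4-TCR against Villin-HA + CL4-TCR cells the scaled median of all genes became 0.29, and 75% instead of 48.2% of the calls over all genes were higher.

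**Figure D2:**
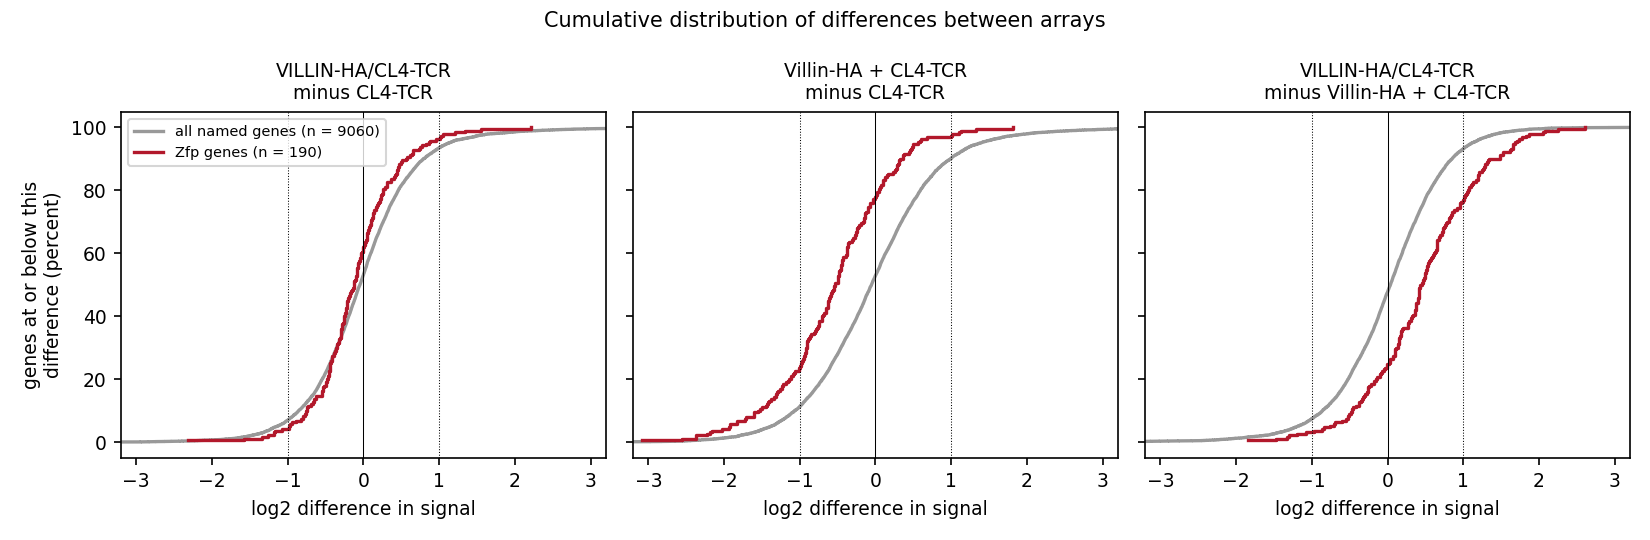
Cumulative percent of genes against the log2 difference in signal, for the 190 Zfp genes and all 9060 named genes above the floor, in the 3 comparisons. The curves lie close together in the first comparison, with medians of -0.12 and -0.05, and the Zfp curve lies to the left in the second (-0.53 and -0.05) and to the right in the third (0.44 and 0.04).

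The largest deficit in Villin-HA + CL4-TCR cells was that of Zfp946, with signals of 689.1, 288.4 and 81, 8.51-fold below the receptor-only array and 3.56-fold below the VILLIN-HA/CL4-TCR array. Zfp950 had 325.9, 337.7 and 55.5. Its 2 other arrays were alike, and the Villin-HA + CL4-TCR value was 5.87-fold below the receptor-only one. Zfp712 had 230.1, 108.9 and 44.6 (5.16-fold lower), by a probe set that can match several transcripts. Zfp574 had 1143.8, 790.1 and 245.1 (4.67-fold), Zfp952 179.8, 113.5 and 39.5 (4.55-fold) and Zfp458 253.4, 207.2 and 62.2 (4.07-fold). In these genes the Villin-HA + CL4-TCR value was the lowest of the 3. Each of these 6 genes has 1 probe set above the floor.

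Zfp809, a KRAB protein that recruits Trim28 to retroviral DNA at the primer binding site, had 568.6, 463.9 and 150.3 and was 3.78-fold lower. Zfp329 had 495.1, 407.5 and 129.6 (3.82-fold lower), with log2 differences of -1.93 and -2.01 by its 2 probe sets. Zfp445, a KRAB protein that keeps imprinted DNA methylation, had 2534.4, 2745 and 1216.2. Its receptor-only and VILLIN-HA/CL4-TCR signals differed by 1.08-fold, the Villin-HA + CL4-TCR signal was 2.08-fold lower, and its 2 other probe sets gave -1.27 and a value just short of 2-fold lower. For Zfp809 and Zfp445 the Villin-HA + CL4-TCR value was thus the low one. Zfp57, the other KRAB protein of imprint maintenance, had at most 10.5 on any array.

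Zfp207, whose product binds microtubules and the checkpoint protein Bub3, had 1935.7, 1583.7 and 373.9 by its chosen probe set, 5.18-fold lower in Villin-HA + CL4-TCR cells. Of its 5 measured probe sets, 3 others had log2 differences of -2.91, -2.89 and -1.56, and 1 had 0.83, so the probe sets of Zfp207 disagreed in direction. Zfp318, which is needed for the alternative processing that yields IgD in B cells, had 867.7, 641.3 and 195.1 (4.45-fold lower). Its 4 other probe sets were lower by less, from -0.84 to -0.46 on the log2 scale. Zfp592, a partner of Zmynd8 like Zfp687, had 569, 450.9 and 186.5 (3.05-fold lower), with other probe sets at -1.22 and 0.19. The size of the deficit of these 3 genes thus depended on the probe set.

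Zfp217, part of complexes with CtBP and the demethylase LSD1, had 597.4, 440.9 and 220.4 (2.71-fold lower). Zfp644, which works with the methyltransferases encoded by Ehmt1 and Ehmt2, had 589.1, 464.5 and 240.2 (2.45-fold lower), and its 4 other probe sets ran from -1.84 to -0.20. Zfp263 had 696, 505.4 and 321.6 (2.16-fold lower) by a probe set that can match several transcripts, and its other probe set gave -0.04. Zfp292 had 711.4, 509.9 and 356.3, a difference just short of 2-fold, and its other probe sets ran from -0.94 to -0.15. Zfp148, which binds GC-rich promoters, had 612.6, 512 and 327.6 (-0.90). Its other probe sets ran from -1.27 to 0.47 and so disagreed in direction.

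Only 6 Zfp genes were at least 2-fold higher in Villin-HA + CL4-TCR cells, 3 of them Zfp367, Zfp330 and Zfp52 as given above. Zfp869 had 99.1, 93.1 and 212.9 (2.15-fold higher). Zfp282 had 33.2, 57 and 83.4 (2.51-fold) and Zfp787 33.8, 32.1 and 67.7 (2.00-fold), both close to the floor on the receptor-only array. After scaling to equal medians 2 of the 6, Zfp367 and Zfp282, were counted as higher.

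The kept genes include 27 with a well known role, some of them described above. On the Villin-HA + CL4-TCR array 9 were at least 2-fold lower (33.3%, against 11.3% of all genes) and 1, Zfp367, higher (3.70% against 9.91%). In VILLIN-HA/CL4-TCR cells 2 were lower, Zfp652 and Zfp687 (7.41% against 6.98%), and 1 higher (3.70% against 6.56%), shares near or below those of all genes. Zfp36, the mRNA decay factor tristetraprolin, had 477.7, 275.9 and 763.4, with log2 differences of -0.79 and 0.68 from the receptor-only array. Zfp91, which activates the NF-kappaB-inducing kinase, had 431.9, 462.5 and 657.5. Its 3 other probe sets gave -0.98 to -0.00 in Villin-HA + CL4-TCR cells where the chosen one gave 0.61. Zfp335, needed for the maturation of T cells, had 303.3, 164.3 and 218.9 (-0.88 and -0.47).

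Zfp410, an activator of the chromatin remodeller gene Chd4, had 428.5, 585.4 and 548.9 (0.45 and 0.36), and Chd4 itself had log2 differences of -0.23 and -0.90. Zfp106, an RNA-binding protein of motor neurons and muscle, had 641.6, 1064.8 and 577.1. In Villin-HA + CL4-TCR cells, where muscle markers were high, its brightest probe set gave -0.15 and the 2 others 0.50 and 0.68. In VILLIN-HA/CL4-TCR cells the same probe sets gave 0.73, 0.80 and -0.05, with summed muscle signals of 179.4 against 179.7 (receptor-only). Whether muscle RNA had a part in these values was not tested. Of the remaining known genes, Zfp131 had log2 differences of -0.03 and -0.63, Zfp281, a factor of stem cells, 0.11 and -0.46, Zfp326, which links RNA polymerase II to splicing, 0.37 and -0.45, and Zfp384, a DNA-binding protein of the nuclear matrix, 0.19 and -0.22. Zfp451, a SUMO ligase, had -0.22 and -0.59, Zfp638 0.14 and -0.38, Zfp703 -0.17 and 0.05, Zfp800 -0.08 and -0.29, and Zfp830, which guards the genome of early embryos, -0.45 and -0.10. None of these passed 2-fold by its chosen probe set.

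**Figure D3:**
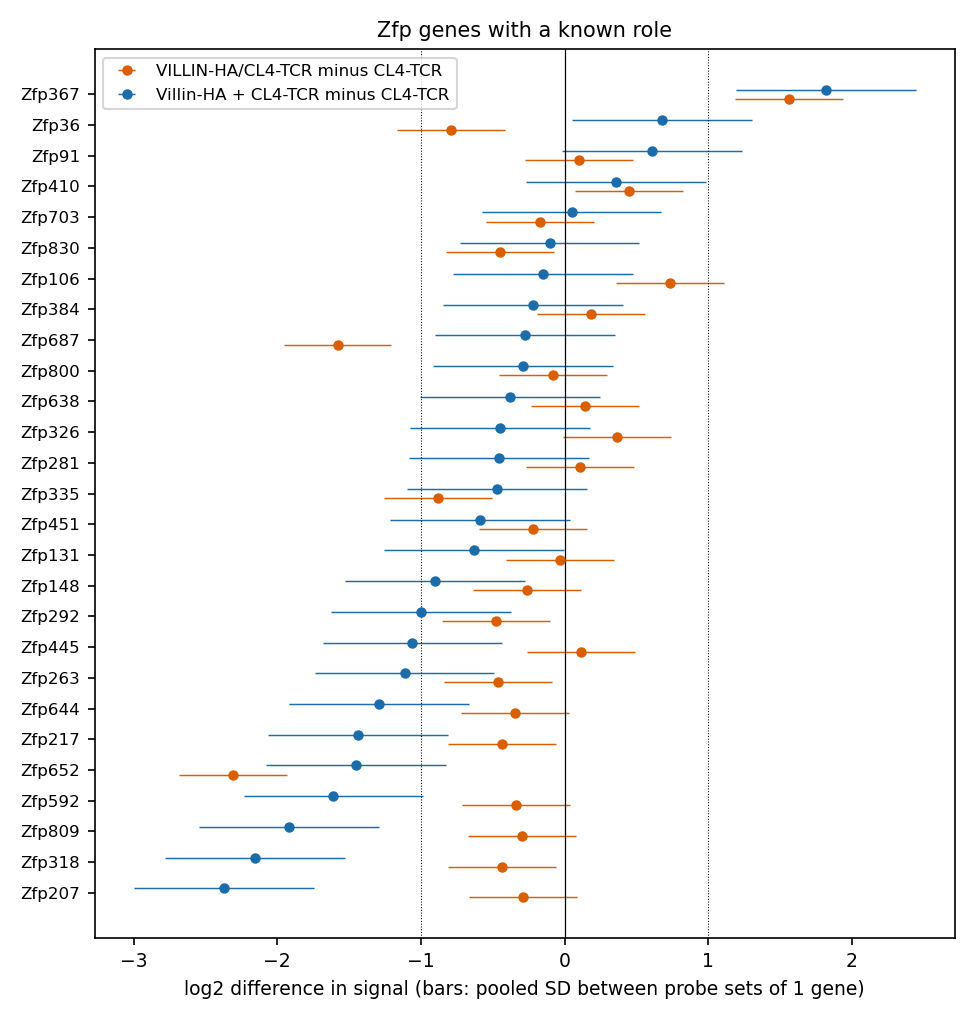
Log2 difference from the receptor-only array of the 27 Zfp genes with a known role, for both HA arrays, with bars of the pooled SD between probe sets of 1 gene (0.38 and 0.63), which leaves out animals and sorts. Zfp367 lies beyond 1 on both arrays and Zfp652 below -1 on both, while 8 further genes, from Zfp207 to Zfp445, lie below -1 in Villin-HA + CL4-TCR cells and above it on the other.

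The probe sets that were not chosen gave another reading of the same RNA. For the 53 genes that had one above the floor, their median log2 difference in Villin-HA + CL4-TCR cells was -0.52, against -0.04 for 3931 genes in all, and 7 (13.2%) were at least 2-fold lower against 10.3%. None was at least 2-fold higher, against 8.98%. Of the 45 genes counted as lower, 18 had another such probe set. In 17 the median of the other probe sets was lower too (94.4%, against 81.3% over all genes counted as lower). In 4 it was lower by at least 2-fold (22.2% against 29.8%). The pooled SD between probe sets was 0.63 in this comparison. The exception in direction was Zfp319, with -1.60 by the chosen and 0.07 by the other probe set.

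**Figure D4:**
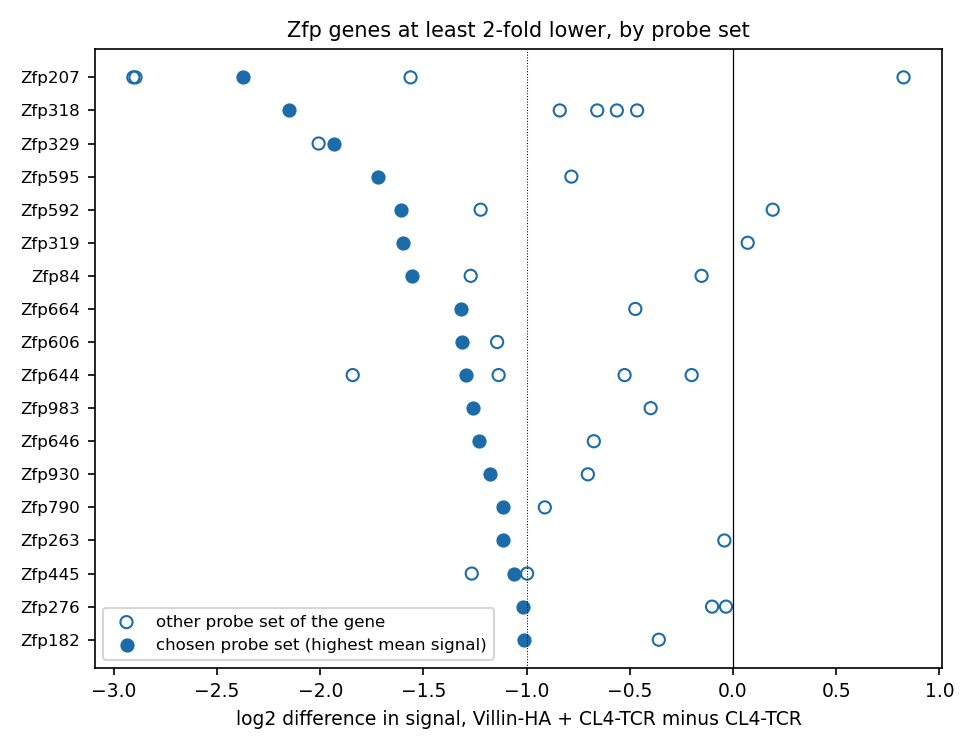
Log2 difference between the Villin-HA + CL4-TCR and receptor-only arrays for the 18 Zfp genes counted as lower that have several probe sets above the floor. Filled points are the chosen and open points the other probe sets, which lie nearer to 0 in most rows, with values past 0 in Zfp207, Zfp592 and Zfp319.

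The third comparison sets the HA arrays against each other and asks where the activated and the regulatory population differ. It shares the Villin-HA + CL4-TCR array with the second. Of the 190 genes 45 were at least 2-fold higher in VILLIN-HA/CL4-TCR cells (23.7%, against 6.91% of all genes above the floor) and 6 lower (3.16%, against 7.43%), with a median log2 difference of 0.44 against 0.04. The summed muscle (179.4 and 5640.4) and stromal (123.2 and 884.5) markers and the Gapdh end ratio (46.2 and 3.35) differed between these arrays, and their part in the result was not tested. Zfp950 led with a 6.08-fold higher signal, followed by Zfp141 (4.78-fold; signals of 146.6, 197.1 and 41.2), Zfp207 (4.24-fold) and Zfp760 (4.16-fold; 237, 278.1 and 66.8). Zfp84 was 3.66-fold higher, with 148, 184.4 and 50.4, and its other probe sets gave 1.10 and -0.37. Zfp946 was 3.56-fold, Zfp74 3.44-fold, Zfp458 3.33-fold, Zfp318 3.29-fold and Zfp574 3.22-fold higher. In all of these the Villin-HA + CL4-TCR value was the lowest of the 3. Of the 45 genes 16 had another probe set above the floor, of which 13 were higher too (81.2%, against 75% over all genes counted as higher) and 5 by at least 2-fold (31.2% against 24.7%). Over the 53 genes with several probe sets the median of the unchosen ones was 0.38, against -0.02 for all such genes.

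The 6 genes lower in VILLIN-HA/CL4-TCR than in Villin-HA + CL4-TCR cells were Zfp740 (3.58-fold), Zfp36 (2.77-fold), Zfp523 (2.50-fold), Zfp687 (2.47-fold), Zfp869 (2.29-fold) and Zfp787 (2.11-fold). Zfp36 is the one RNA-decay factor among them. Its relatives Zfp36l1 and Zfp36l2 had log2 differences of -0.00 and -0.63 in the same comparison, with signals of 2674.4, 4158.9 and 4166.2 for Zfp36l1 and 2480, 2159.1 and 3332.4 for Zfp36l2. A list of 32 mRNA decay names had 30 genes above the floor. In VILLIN-HA/CL4-TCR cells 1 was at least 2-fold higher than on the receptor-only array (3.33%, against 6.56% of all genes) and 0 lower (against 6.98%). In Villin-HA + CL4-TCR cells 1 was higher (3.33% against 9.91%) and 3 were lower. The 3 are 10% of the list, against 11.3% of all genes, so the list's share past 2-fold lower was near that of the background. The higher one was Zc3h12d both times (97.2, 210.2 and 310), and the lower were Cnot4, Dcp1a and Rc3h2, of deadenylation, decapping and mRNA repression. By lowest signal the list lay nearer to the Zfp genes. In Villin-HA + CL4-TCR cells 19 of the 30 (63.3%) were lowest, against 67.9% of Zfp genes and 38.8% of all genes. Between the HA arrays 4 decay genes were at least 2-fold higher in VILLIN-HA/CL4-TCR cells (13.3%, against 6.91% of all genes) and 0 lower (against 7.43%).

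As deposited, the genes of the machinery that KRAB zinc finger proteins call on passed 2-fold about as often as all genes. After scaling to equal medians this no longer held. Of 34 co-repressor and heterochromatin genes above the floor, from a list of 42 names, 3 were higher (8.82%, against 6.56% of all genes) and 2 lower (5.88% against 6.98%) in VILLIN-HA/CL4-TCR cells. In Villin-HA + CL4-TCR cells 3 were higher (8.82% against 9.91%) and 5 lower (14.7% against 11.3%), and the medians were 0.03 and -0.14. With every array set to 1 median the 5 became 9, out of at most 36 with a probe set, while the share of all genes became 16.7%. Between the HA arrays 2 were higher in VILLIN-HA/CL4-TCR cells (5.88% against 6.91%) and 2 lower (5.88% against 7.43%). With every array set to 1 median these became 7 higher and 0 lower, against 13.1% and 4.38% of all genes. As deposited, the median of the list between the HA arrays was 0.39, against 0.44 for Zfp genes and 0.04 for all genes. Of the 34 genes 17 (50%) had their lowest signal in Villin-HA + CL4-TCR cells, against 38.8% of all genes. Trim28, the central co-repressor, had 2137.6, 2519.4 and 1638.6, and Setdb1 330.7, 290.8 and 171 (-0.19 and -0.95). Atf7ip, the partner that stabilises Setdb1, had 1954.4, 1433 and 493.5, 3.96-fold lower in Villin-HA + CL4-TCR cells, where Tasor of the HUSH silencing complex (200.6, 125.6 and 81.3), Chd3, Ehmt1 and Resf1 were also at least 2-fold lower. Uhrf1, which guides DNA methylation to newly copied DNA, stood the other way with 35.5, close to the floor, 196.1 and 447.6. It was 5.52-fold and 12.6-fold higher, as was the chromatin assembly gene Chaf1b (2.79-fold and 4.90-fold). The third higher gene was Hdac1 in VILLIN-HA/CL4-TCR cells and Ehmt2 in Villin-HA + CL4-TCR cells, and the lower ones in VILLIN-HA/CL4-TCR cells were Mta2 and Mta3.

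Other zinc finger families are given beside them. Of 29 Zbtb genes, which pair zinc fingers with a BTB domain, 10 (34.5%) were at least 2-fold lower and 0 higher in Villin-HA + CL4-TCR cells, with a median of -0.52, and 3 and 0 in VILLIN-HA/CL4-TCR cells, with a median of -0.34. Zbtb7a had 374.5, 62.4 and 84.6 and Zbtb4 810.2, 309.6 and 151.4. Of 15 Zscan and Zkscan genes 3 (20%) were lower and 0 higher in Villin-HA + CL4-TCR cells, led by Zscan26 with 856.6, 398 and 145.6. Zc3h genes, whose fingers bind RNA, had 4 of 16 lower and 1 higher, Phf genes, chromatin readers with another zinc-binding fold, 4 of 16 lower and 3 higher, and Zmym genes 2 of 5 lower and 0 higher. Zdhhc genes, zinc-containing enzymes that do not bind DNA, had 2 of 17 lower (11.8%) and 1 higher, with a median of 0.02. Between the HA arrays the medians were 0.92 for Zmym, 0.40 for Zc3h, 0.29 for Zscan and Zkscan and 0.27 for Zbtb genes. Those of Zdhhc and Phf genes were 0.18 and 0.11, against 0.44 for Zfp genes and 0.04 for all genes. At least 2-fold higher in VILLIN-HA/CL4-TCR cells were 4 Zbtb (13.8%) and 3 Zscan or Zkscan genes (20%), against 6.91% of all genes, with 0 lower. Zc3h and Zmym each had 1 higher and 0 lower, Zdhhc 1 and 1, and Phf 0 and 1. Whether Zfp genes differ from the other families was not tested.

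**Figure D5:**
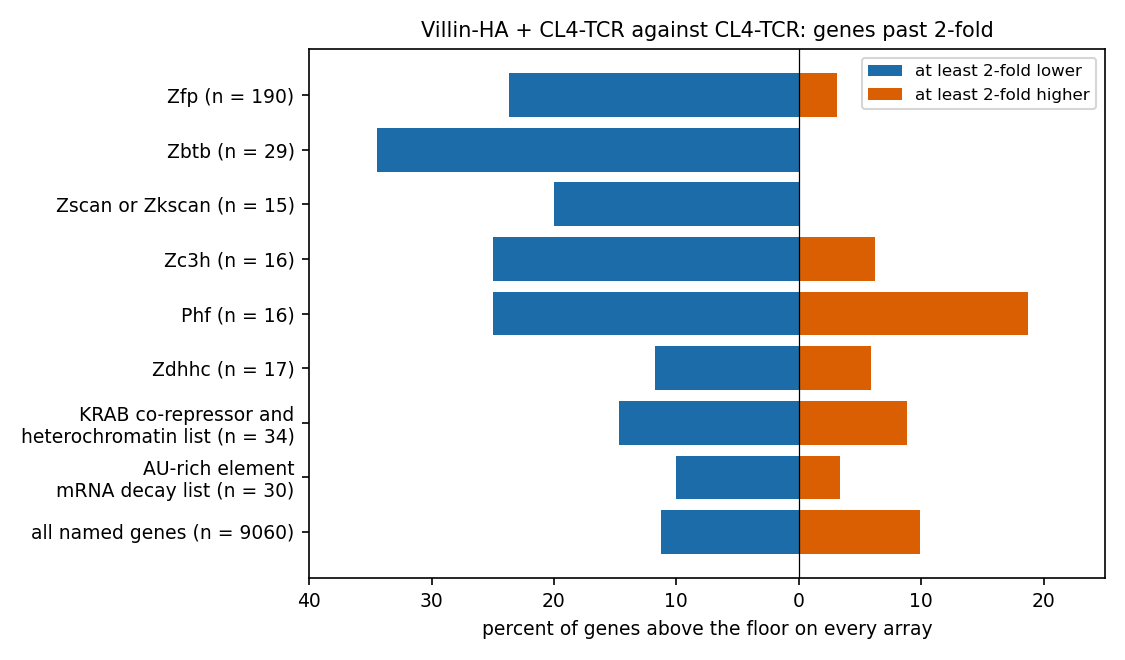
Percent of genes above the floor that were at least 2-fold lower (left of 0) or higher (right) in Villin-HA + CL4-TCR cells than on the receptor-only array, for Zfp genes, 5 other families, 2 gene lists and all named genes. The share of lower genes was 23.7% for Zfp, 34.5% for Zbtb and 11.3% for all genes.

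Zfp genes that neighbour each other were set beside the rest. Runs of at least 3 Zfp genes with at most 2 other protein-coding genes between neighbours, by the gene order of RefSeq, held 81 of the 189 genes that could be placed. Inside runs 22 (27.2%) and outside 23 of 108 (21.3%) were at least 2-fold lower in Villin-HA + CL4-TCR cells than on the receptor-only array, with medians of -0.60 and -0.48. Of all genes 11.3% were. Set against Villin-HA + CL4-TCR cells, 26 genes inside runs (32.1%) and 19 outside (17.6%) were at least 2-fold higher in VILLIN-HA/CL4-TCR cells, with medians of 0.65 and 0.41. The share of all genes was 6.91%. In VILLIN-HA/CL4-TCR cells against the receptor-only array 5 were higher (6.17%) and 2 lower (2.47%) inside, and 2 higher (1.85%) and 6 lower (5.56%) outside. Of all genes 6.56% were higher and 6.98% lower there, so each of these shares was below that of all genes. These differences between genes inside and outside runs were not tested. The share with the lowest signal in Villin-HA + CL4-TCR cells was 67.9% inside and 67.6% outside. The largest run by kept genes held 13 of its 18 Zfp genes, among them Zfp946 and Zfp52, which had opposite differences (-3.09 and 1.02). It had 4 lower (30.8%) and 1 higher in Villin-HA + CL4-TCR cells. A run of 8 with 6 kept genes, Zfp212, Zfp282, Zfp398, Zfp746, Zfp777 and Zfp956, had 0 lower and 1 higher, while a run of 19 with 8 kept genes, which include Zfp712 and Zfp458, had 3 lower (37.5%) and 0 higher. A run of 15 with 7 kept genes had 3 lower (42.9%) and 0 higher. Another run of 8 with 6 kept genes had 1 lower (16.7%) and 0 higher. Of all genes 11.3% were lower and 9.91% higher.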

How the data were processed

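Single 1-colour arrays of 3 groups of mouse CD8 T cells were compared. Each took cRNA with a biotin label, from 6 µg of RNA per the labels' protocols. The deposited intensity values are MAS5 signals, per the submitters' processing notes, on a linear scale with a 2% trimmed mean of 150 on each array; its settings were not used here. MAS5 subtracts mismatch signal, so low values are noisy, and its scaling hides a shift shared by most transcripts. The number of arrays limits the precision.

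Of 45101 probe sets, 34958 had 1 gene symbol in the platform annotation, 932 several and 9211 none, and only the first were used. All 190 Zfp symbols were unchanged in the RefSeq table. Differences are log2 ratios of signals above the floor on every array, counted at 2-fold, with no test. Scaling, floors at the 40th and 65th percentile, the probe sets and a 1.5-fold limit were varied. Named genes were the up to 10 largest differences of at least 2-fold per direction and comparison, the genes with known roles, the 3 nearest the floor on each side, and listed genes past 2-fold; genes singled out by probe set, motif or run were named after their values were seen, when those analyses were added. The members and lists were chosen with earlier results of these data known. Protein sequences were not used here, so KRAB genes were not separated. Calculations used Python with numpy 2.4.6 and pandas 2.3.3 and were tested on simulated data.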

Additional observations from a re-analysis of the deposited data

How the results depend on the processing

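No paired analysis was possible because each group holds 1 array. The results by KRAB motif were not run, and updating the symbols moved no result past its tolerance. The excess of lower over higher Zfp genes in Villin-HA + CL4-TCR cells had the same direction under every alternative run. Comparison A sets VILLIN-HA/CL4-TCR, and B sets Villin-HA + CL4-TCR, against the receptor-only array, and C sets the HA arrays against each other. After scaling to equal medians the Zfp medians were -0.066 (A), -0.74 (B) and 0.72 (C), 2 Zfp genes were higher in B, co-repressor genes were lower for 1 (A), 9 (B) and 0 (C) and higher for 7 (C), and 5 mRNA decay genes were lower in B. After quantile normalisation the Zfp medians were -0.065 (A), -0.48 (B) and 0.49 (C), 1 co-repressor gene was lower in A and 2 mRNA decay genes were higher in C. With the floor at the 65th percentile, a signal of 68.6, 132 Zfp genes remained, of which 4 were lower in A (median -0.17), 24 lower in B (18.2%, against 11.2% of all genes), 24 higher and 3 lower in C, and 14 lowest on the receptor-only array, since fewer genes were kept. There 1 co-repressor gene was higher in A, 1 in B, and 1 lower in C. With the mean of all probe sets of a gene the Zfp median in A was -0.18, 33 Zfp genes were lower in B (17.4%, against 8.92% of all genes), 3 co-repressor genes were lower in B and 1 higher in C, 1 mRNA decay gene was lower in B and 2 higher in C, and 1 Zscan or Zkscan gene was lower in C. Leaving out probe sets that may match further transcripts, 1 co-repressor gene was lower in A and 1 in C. At 1.5-fold 18 Zfp genes were higher and 28 lower in A, 90 lower in B, and 78 higher and 13 lower in C. The causes of these shifts, other than fewer genes or another limit, were not tested. Of the values of single named genes under the alternatives, 15 moved by more than the SD between probe sets, 1002 did not, and none that was past 2-fold changed sign. Of the moves, 9 came with the mean of all probe sets and 6 without probe sets that may match further transcripts. Many of the 1002 could hardly move. The floors and updated symbols mostly kept the same signals, and the median scaling added a constant smaller than that SD. By the mean of all probe sets Zfp318 and Zfp592 were no longer 2-fold lower in B (-0.94 and -0.88), nor was Zfp263 without probe sets that may match further transcripts (-0.04).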

Other observations

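Zfp622 and Zfp593, whose products help mature the large ribosomal subunit, and Zfp598, which marks collided ribosomes, were chosen after their values were seen. Zfp622 had signals of 4213.4 (receptor-only), 3766.7 (array of VILLIN-HA/CL4-TCR) and 5235.1 (array of Villin-HA + CL4-TCR), and its 3 measured probe sets gave log2 differences of 0.31, 0.81 and 0.85 between the last and the first, all opposite in sign to the Zfp median of -0.53. Zfp593 had 166, 171.8 and 208.2 by its chosen probe set and 102, 56.3 and 42.7 by its other one, log2 differences of 0.33 and -1.26 between the last and the first array, so that its probe sets disagreed in direction. Zfp598 had 678.4, 483.1 and 389.3, a log2 difference of -0.80. The E2F letters also stood in a window of Zfp213, Zfp444, Zfp61, Zfp653 and Zfp871, whose log2 differences in Villin-HA + CL4-TCR cells were -1.14, 0.10, -0.61, -0.70 and -0.93, beside 1.82 for Zfp367.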
